A study of Mus musculus with 16 samples.

Results

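Excision, mismatch and end-joining repair was examined through 46 mouse genes, taken as a named list of symbols and read from an expression table of 18990 genes. All 46 were found, and all 46 passed the filter on low values, for which log2 CPM had to average 0 or more across the libraries and which left 14028 genes for testing. CPM is a count scaled to the size of its library, and every CPM given here is 2 raised to the deposited log2 value.

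The RNA came from primary mouse embryonic fibroblasts (MEFs) of the BL6 strain and wild-type genotype, reprogrammed at passage 2. All 8 groups, the controls included, carried the doxycycline-inducible tet-STEMCCA cassette (Oct4, Sox2, Klf4 and c-Myc, together OSKM) and rtTA, and all received 40 nM of pooled siRNA before induction. The siRNA was non-targeting (nt control) or was directed at Wdr5, Brca1 or Bard1 (siWdr5, siBrca1, siBard1). Cells were then grown in medium with 2 µg/mL doxycycline, 3 µM chiron, 0.25 µM Alk5i, 50 µg/mL ascorbic acid and LIF, and were collected at day 3 or day 6, with 2 libraries per group. The RNA was of whole cultures, so fewer cells of a type and less RNA per cell cannot be told apart. Each siRNA is a pool against 1 gene, and no sorting of cells before RNA extraction is stated.

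Base excision repair removes single damaged bases. A DNA glycosylase cuts out the base, an AP endonuclease nicks the strand, and a polymerase and a ligase fill and close it, with PARP enzymes and the XRCC1 scaffold at the nick. Nucleotide excision repair removes bulky lesions such as ultraviolet photoproducts: XPC or stalled RNA polymerase finds the lesion, TFIIH opens the helix and a pair of nucleases cuts on either side. Mismatch repair corrects copying errors behind the replication fork through MutS and MutL complexes. Non-homologous end joining rejoins double-strand breaks from the Ku heterodimer and DNA-PK to ligase IV, and translesion polymerases copy past lesions that were not removed. BRCA1 and BARD1 form a ubiquitin ligase that acts in homologous recombination, and WDR5 is a subunit of histone H3 lysine 4 methyltransferase complexes. None of these 3 targets is among the 46 genes.

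Promoter windows (250 bases before to 50 after the start of a gene) from RefSeq on GRCm38.p6 were matched by symbol for 39 of the 46 genes, in 45 windows. There was no entry for Prkdc, Rev3l, Polb, Ercc3, Apex2, Xpc or Ddb2. The windows shown are 3 with a match to an E2F lettering, which is the site class tied to S-phase genes (Msh6, Nthl1 and Xrcc6), that of Ung, which had the lowest log2 fold change of all members, and that of Ercc5, which was higher in siWdr5 and siBrca1 at day 3. Each runs 5′ to 3′ along the strand of its gene, and capitals mark the matches on either strand to E2F letterings (TTTCCCGC, TTTCGCGC, TTTGCCGC or TTTGGCGC), to the cell cycle homology region CHR (TTTGAA) or to the CCAAT box (CCAAT). The windows lie at chr17:87974800-87975099 (plus strand) for Msh6, chr17:24632432-24632731 (plus strand) for Nthl1, chr15:82016119-82016418 (plus strand) for Xrcc6, chr5:114130185-114130484 (plus strand) for Ung and chr1:44147494-44147793 (plus strand) for Ercc5.
Msh6: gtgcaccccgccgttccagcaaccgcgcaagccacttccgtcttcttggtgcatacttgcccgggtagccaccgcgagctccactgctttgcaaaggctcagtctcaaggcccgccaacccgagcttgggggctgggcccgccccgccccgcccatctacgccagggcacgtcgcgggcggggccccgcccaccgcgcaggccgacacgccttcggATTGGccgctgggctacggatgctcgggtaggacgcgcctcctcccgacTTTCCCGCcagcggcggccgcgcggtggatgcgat
Nthl1: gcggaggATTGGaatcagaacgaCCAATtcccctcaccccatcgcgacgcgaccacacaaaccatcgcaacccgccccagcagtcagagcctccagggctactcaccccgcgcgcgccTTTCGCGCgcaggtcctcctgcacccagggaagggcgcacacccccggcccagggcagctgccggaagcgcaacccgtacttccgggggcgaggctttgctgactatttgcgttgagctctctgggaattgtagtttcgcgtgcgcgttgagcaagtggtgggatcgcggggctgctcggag
Xrcc6: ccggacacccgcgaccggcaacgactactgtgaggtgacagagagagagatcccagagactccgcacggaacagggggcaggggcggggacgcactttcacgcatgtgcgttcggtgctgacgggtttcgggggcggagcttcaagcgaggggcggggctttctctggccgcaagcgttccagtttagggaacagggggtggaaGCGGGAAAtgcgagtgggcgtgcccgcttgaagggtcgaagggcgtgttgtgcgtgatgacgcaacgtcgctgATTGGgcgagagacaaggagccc
Ung: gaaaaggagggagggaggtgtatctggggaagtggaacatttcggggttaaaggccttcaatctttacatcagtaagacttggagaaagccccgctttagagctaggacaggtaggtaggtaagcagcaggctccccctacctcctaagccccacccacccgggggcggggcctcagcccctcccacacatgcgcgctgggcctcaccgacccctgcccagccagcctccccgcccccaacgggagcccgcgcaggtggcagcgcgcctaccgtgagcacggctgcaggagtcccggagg
Ercc5: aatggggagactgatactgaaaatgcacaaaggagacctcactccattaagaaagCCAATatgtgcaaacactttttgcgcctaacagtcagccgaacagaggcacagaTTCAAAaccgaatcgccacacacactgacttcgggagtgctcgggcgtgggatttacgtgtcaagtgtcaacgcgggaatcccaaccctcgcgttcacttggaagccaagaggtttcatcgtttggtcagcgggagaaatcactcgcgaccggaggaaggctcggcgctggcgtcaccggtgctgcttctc
Ung holds no match to these letterings. An E2F lettering was in 4 of the 45 member windows (8.89%), in 2.26% of all 32851 windows of the table and in 3.82% of the 13106 windows of tested genes. CHR was in 1 member window, that of Ercc5 (2.22%, against 17.9% of all windows and 11.8% of those of tested genes). A CCAAT box was in 22 (48.9%, against 37.4% and 37.6%). Of the 13 members that fell in both siWdr5 and siBrca1 at day 3, 2 held an E2F lettering (Msh3 and Xrcc6), as did 2 of the other 26 members with a window. These matches are descriptions of letters and not of binding.

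The libraries held between 11169738 and 26832534 reads, recovered from the steps of the deposited values, and the least counted member value was 20 reads (Ddb2, siBard1 day 3 replicate 1). On this CPM scale, which includes the small prior that the deposited values hold, a count of 3 reads reads as 0.251 to 0.396 CPM, depending on the library. Markers of the cell types moved between the groups. The fibroblast list was detected in full in every library, and at day 3 its 8 genes summed to 7711 and 8706 CPM in the nt control, 12678 and 11531 CPM in siBrca1, 13625 and 14138 CPM in siWdr5, and 11192 and 9618 CPM in siBard1. Of the 8 genes, 5 rose in siBrca1 (25.4% of all genes), 6 in siWdr5 (18.3%) and none in siBard1 (8.67%). In siBard1, 3 of the 8 had an unadjusted p under 0.05. The epithelial list (5 genes, Cdh1 and Epcam included) summed at day 3 to 65.9 and 44.0 CPM in the nt control, 36.0 and 23.4 CPM in siBrca1, 20.6 and 20.7 CPM in siWdr5, and 44.7 and 36.6 CPM in siBard1, with 2 genes lower and 1 higher in siBrca1 and 3 lower in siWdr5. Of all genes, 21.8% fell in siBrca1 and 16.8% in siWdr5 at day 3. In the nt control at day 6 the epithelial list summed to 549 and 739 CPM.

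Lists for other cell types were below the fibroblast list in every library, though not always below the epithelial list, and some differed between groups at day 3. The macrophage list (Ptprc had no row) ran from 7.05 to 22.8 CPM over all libraries. At day 3 it was at 8 and 7.05 CPM in the nt control and 17.2 and 16.2 CPM in siBrca1. In siBrca1 2 of its 3 tested genes rose (25.4% of all genes). Des, the sole skeletal muscle gene with a row, rose in all 3 knockdowns at day 3, from 30.7 and 40.1 CPM to 164 and 171 CPM in siBrca1, 139 and 139 CPM in siWdr5, and 88.6 and 74.6 CPM in siBard1. The endothelial list ran from 15.8 to 59.6 CPM, with none of its 2 tested genes past the test at day 3 (at an unadjusted p under 0.05, 1 in siBrca1, 1 in siBard1 and 0 in siWdr5). These markers moved in the same comparisons as the repair genes, and their part in the repair gene differences was not tested.

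The targeted transcripts were lower at day 3 in the cells that received their siRNA. Wdr5 was at 50.6 and 55.3 CPM in siWdr5 against 132 and 130 CPM in the nt control, Brca1 at 37.5 and 19.4 CPM in siBrca1 against 82.4 and 78.0 CPM, and Bard1 at 18.0 and 20.8 CPM in siBard1 against 30.5 and 29.1 CPM. The 3 transcripts were not lowered by their own siRNA alone: Bard1 was at 14.4 and 9.07 CPM in siBrca1 and at 13.9 and 15.3 CPM in siWdr5. At day 6 no target passed the test in the cells that received its siRNA, with Brca1 at 35.9 and 40.1 CPM in siBrca1 against 33.2 and 42.6 CPM, Wdr5 at 85.5 and 72.4 CPM in siWdr5 against 91.8 and 98.1 CPM, and Bard1 at 12.6 and 14.5 CPM in siBard1 against 11.3 and 14.0 CPM (limma adjusted p = 0.988, 0.189 and 0.853).

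Replicates differed in some groups. In siBrca1 at day 3, replicate 2 had a summed level of 663 CPM for 12 proliferation genes (Mki67, Top2a, cyclins, MCM helicase subunits, Cdk1 and Pcna) and replicate 1 had 1263 CPM. The nt control at day 3 had 2242 and 2236 CPM, siBard1 1735 and 1770 CPM, and siWdr5 1315 and 1427 CPM. At day 6 the 4 late pluripotency markers, Nanog and Esrrb included, summed to 355 and 78.8 CPM in siBrca1 and 75.1 and 22.8 CPM in siWdr5, against 93.8 and 99.98 CPM in the nt control and 168 and 102 CPM in siBard1. The part of these proliferation and pluripotency levels in the repair gene differences below was not tested.

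Levels of the members between genes were compared per length, as CPM per kb of annotated exon, in the nt control at day 3. Ddb1, the adaptor of the CUL4 ubiquitin ligase that also finds ultraviolet lesions, was highest at 144 ± 1.7 CPM per kb (SD, n = 2), ahead of Parp1 at 57.8 ± 2.9 and Rad23b at 40.5 ± 2.7. Msh6 followed at 30.1 ± 0.17 CPM per kb and Xrcc5 at 22.1 ± 1.2. Ddb2 was lowest at 0.898 ± 0.20 CPM per kb, next to Neil3 at 1.20 ± 0.0036 and Xrcc4 at 1.28 ± 0.097. Msh3, Ercc6 and Pms1 lay at 2.66 ± 0.15, 2.55 ± 0.039 and 2.54 ± 0.0049 CPM per kb, neighbours in this order that did not differ beyond their spread. Exon bases shared with another annotated gene can mix reads where counting did not use strand, which is not stated; they were above 10% in 8 members, Apex1 (61.7%), Ercc2 (42.7%), Mpg (35.7%), Rev1 (26.6%), Lig3 (25.1%), Ddb2 (23.8%), Trp53bp1 (15.0%) and Ogg1 (10.6%), whose values are less certain for it.

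At day 3, repair genes that differed from the nt control were mostly lower. In siBrca1, 20 of the 46 members fell and 2 rose, in siWdr5 16 fell and 4 rose, and in siBard1 5 fell and none rose, with limma at an adjusted p under 0.05 over all genes tested. Of all 14028 genes, 21.8% fell and 25.4% rose in siBrca1, 16.8% fell and 18.3% rose in siWdr5, and 5.87% fell and 8.67% rose in siBard1. The median log2 fold change of the members was -0.32, -0.35 and -0.18 in siBrca1, siWdr5 and siBard1, and that of all genes 0.0022, -0.042 and -0.021. In siBrca1 7 members and in siWdr5 2 members were lower by more than 1 on the log2 scale (6.27% and 2.95% of all genes), and none in siBard1. The genes that fell in both siWdr5 and siBrca1, which were set against the same control libraries, were 13: Msh3, Pms1, Pms2, Ung, Mutyh, Neil3, Apex1, Parp1, Parp2, Ercc8, Xrcc5, Xrcc6 and Rad18. Of these, 4 (Pms1, Ung, Parp1 and Xrcc6) also fell in siBard1, and 19 members passed the test in no knockdown. The shares of all genes for these overlaps were not counted, so the overlaps are not shown to be particular to the repair genes.

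**Figure D1:**
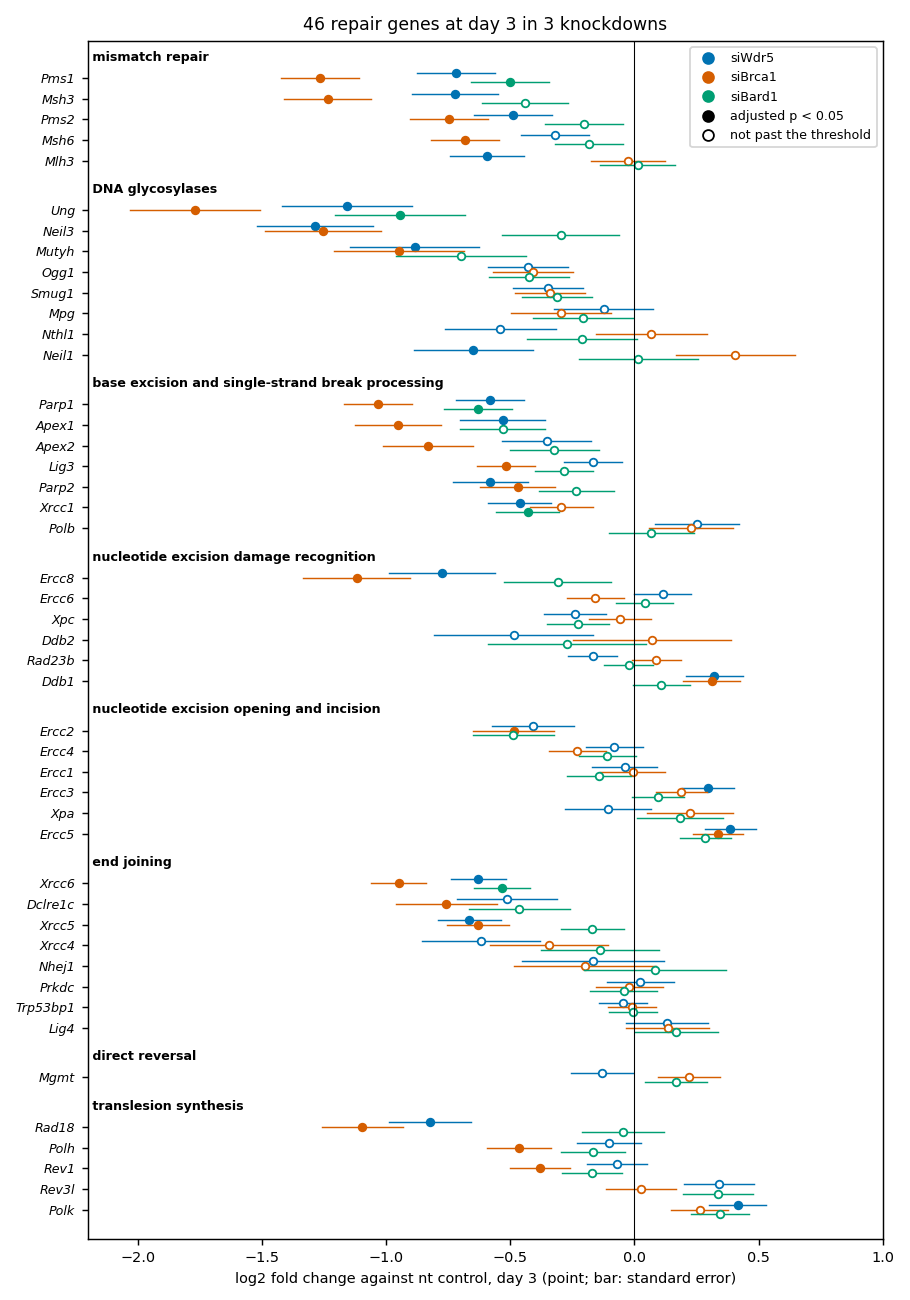
Log2 fold change against the nt control at day 3 (x axis) for each of the 46 genes (y axis, grouped by role) in siWdr5, siBrca1 and siBard1, 2 libraries per group; points are limma estimates, bars standard errors, and filled points have an adjusted p under 0.05. Of the filled points, 41 lie left of 0 and 6 right of it, and the lowest is Ung in siBrca1 at -1.77.

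The number of calls rested on the replicates. Both siBrca1 libraries had a lower proliferation level (1263 and 663 CPM) than the nt control (2242 and 2236 CPM), with replicate 2 the lower. Without siBrca1 replicate 2, the library with the low proliferation level, 18 members differed in siBrca1 (17 lower, 1 higher), and leaving out any 1 library of that comparison gave 16 to 26. In siWdr5 the 20 calls became 8 without siWdr5 replicate 1, 10 without siWdr5 replicate 2, 12 without nt control replicate 1 and 9 without nt control replicate 2. In siBard1 the 5 calls became 3 and 1 without siBard1 replicate 1 and 2, and 0 without either nt control library; with all libraries, 16 members had an unadjusted p under 0.05 and limma-voom called 8. Under every alternative tried, 14 members kept their call in siBrca1 (Apex1, Apex2, Ercc8, Lig3, Msh3, Msh6, Neil3, Parp1, Pms1, Pms2, Rad18, Ung, Xrcc5 and Xrcc6), 6 in siWdr5 (Neil3, Pms1, Rad18, Ung, Xrcc5 and Xrcc6) and none in siBard1. In these fits the lone library of a group was assumed to vary like the other groups. The shares of all genes called under the alternatives are not given here or below. The changes in count are thus not shown to be particular to the repair genes.

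Of the 5 mismatch repair genes, 4 fell in siBrca1 (21.8% of all genes), 4 in siWdr5 (16.8%) and 1 in siBard1 (5.87%), and none rose. Msh3, which with its MutS partner binds insertion and deletion loops, was at 28.7 and 31.1 CPM in the nt control, 15.3 and 10.5 CPM in siBrca1, 16.2 and 20.2 CPM in siWdr5, and 22.5 and 21.5 CPM in siBard1. Every knockdown library lay below both controls, by -1.24 ± 0.17 in siBrca1 (log2 fold change ± SE, adjusted p = 8.8e-05) and -0.72 ± 0.17 in siWdr5 (adjusted p = 0.0059). Pms1, a MutL subunit, was at 19.1 and 19.2 CPM in the nt control, 7.22 and 8.79 CPM in siBrca1, 12.1 and 11.2 CPM in siWdr5, and 12.8 and 14.3 CPM in siBard1. It fell in all 3 knockdowns, by -1.27 ± 0.16, -0.72 ± 0.16 and -0.50 ± 0.16 (limma adjusted p = 3.6e-05, 0.0033 and 0.047).

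Msh6, which with its partner binds single mismatches, was at 130 and 131 CPM in the nt control and 96.9 and 68.6 CPM in siBrca1, where it fell by 0.68 ± 0.14 on the log2 scale. In siWdr5 it was at 99.7 and 110 CPM, and its log2 fold change of -0.32 ± 0.14 did not pass the test. Pms2, the endonuclease subunit of MutL, was at 22.9 and 21.8 CPM in the nt control, 15.6 and 11.4 CPM in siBrca1 and 15.7 and 16.2 CPM in siWdr5. It fell in both, by -0.75 ± 0.16 and -0.49 ± 0.16. Mlh3, the MutL subunit best known from meiotic crossing over, fell in siWdr5 by -0.59 ± 0.15, whereas its log2 fold change in siBrca1 was -0.03 ± 0.15.

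Of the 8 glycosylases, 4 fell in siWdr5 (16.8% of all genes), 3 in siBrca1 (21.8%) and 1 in siBard1 (5.87%), and none rose. Ung, which removes uracil from DNA, was at 28.2 and 28.0 CPM in the nt control, 12.1 and 5.62 CPM in siBrca1, 12.5 and 12.7 CPM in siWdr5, and 16.8 and 12.7 CPM in siBard1. All 6 knockdown libraries were below both controls, with log2 fold changes of -1.77 ± 0.26, -1.16 ± 0.26 and -0.94 ± 0.26 (limma adjusted p = 0.00013, 0.0042 and 0.029), and the libraries of siBrca1 differed from each other more than those of siWdr5. Neil3, which acts on oxidized bases and on interstrand crosslinks in dividing cells, was at 6.67 and 6.69 CPM in the nt control, 3.38 and 2.32 CPM in siBrca1, 2.69 and 2.79 CPM in siWdr5, and 5.88 and 5.02 CPM in siBard1. It fell in siBrca1 by -1.26 ± 0.23 and in siWdr5 by -1.29 ± 0.23, and the value in siBard1, -0.30 ± 0.23, did not pass the test.

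Mutyh, which removes adenine opposite 8-oxoguanine, was at 4.09 and 4.07 CPM in the nt control, 2.13 and 2.11 CPM in siBrca1, and 2.62 and 1.86 CPM in siWdr5. It fell in both, by -0.95 ± 0.26 and -0.89 ± 0.26. Neil1, another enzyme for oxidized bases, was at 6.01 and 4.19 CPM in the nt control, 2.75 and 3.72 CPM in siWdr5, and 6.48 and 6.82 CPM in siBrca1. It fell in siWdr5 only narrowly past the threshold (-0.65 ± 0.24, limma adjusted p = 0.0497), and both siBrca1 libraries were above both controls without passing the test (0.41 ± 0.24). Ogg1, Smug1, Mpg and Nthl1 passed the test in no knockdown, with log2 fold changes from -0.54 to 0.07.

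Of the 7 nick processing genes, 5 fell in siBrca1 (21.8% of all genes), 4 in siWdr5 (16.8%) and 2 in siBard1 (5.87%), and none rose. Parp1, the main poly(ADP-ribose) polymerase of strand breaks, was at 295 and 317 CPM in the nt control, 178 and 126 CPM in siBrca1, 201 and 207 CPM in siWdr5, and 204 and 191 CPM in siBard1. It fell by -1.03 ± 0.14, -0.58 ± 0.14 and -0.63 ± 0.14 (limma adjusted p = 5.9e-05, 0.0053 and 0.0092), with no knockdown library reaching a control. Apex1, the main AP endonuclease, was at 21.2 and 26.4 CPM in the nt control, 13.8 and 10.9 CPM in siBrca1, 16.7 and 16.1 CPM in siWdr5, and 18.6 and 14.5 CPM in siBard1. It fell in siBrca1 (-0.95 ± 0.17) and siWdr5 (-0.53 ± 0.17), but 61.7% of its exon bases are shared with Pip4p1 on the opposite strand, so its reads are uncertain.

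Apex2 was at 26.6 and 21.0 CPM in the nt control, 14.4 and 12.2 CPM in siBrca1, and 21.4 and 15.9 CPM in siWdr5. It fell in siBrca1 (-0.83 ± 0.18), and the siWdr5 libraries overlapped the controls. Parp2 was at 22.4 and 27.3 CPM in the nt control, 19.5 and 16.3 CPM in siBrca1, and 15.4 and 17.8 CPM in siWdr5, and fell in both (-0.47 ± 0.15 and -0.58 ± 0.15). The scaffold Xrcc1 fell in siWdr5 (-0.46 ± 0.13) and siBard1 (-0.43 ± 0.13), and the ligase Lig3 in siBrca1 (-0.52 ± 0.12), where 25.1% of exon bases are shared with Rffl on the opposite strand. Polb, the gap-filling polymerase, was the exception in direction, with log2 fold changes of 0.23 to 0.25 in siBrca1 and siWdr5 that did not pass the test.

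Of the 12 nucleotide excision repair genes, 2 rose and 2 fell in siBrca1, 3 rose and 1 fell in siWdr5, and none passed in siBard1, where 2 had an unadjusted p under 0.05. The shares of all genes that rose were 25.4% in siBrca1 and 18.3% in siWdr5, and those that fell 21.8% and 16.8%. Ercc8, whose product CSA acts where RNA polymerase has stalled, was at 15.4 and 12.7 CPM in the nt control, 8.25 and 5.06 CPM in siBrca1, 7.66 and 8.76 CPM in siWdr5, and 11.5 and 11.2 CPM in siBard1. It fell in siBrca1 (-1.12 ± 0.21) and siWdr5 (-0.78 ± 0.21), the only recognition gene of 6 to do so. Ddb1 was at 917 and 932 CPM in the nt control, 1141 and 1154 CPM in siBrca1, and 1109 and 1203 CPM in siWdr5. It rose in both by small amounts (0.31 ± 0.12 and 0.32 ± 0.12, limma adjusted p = 0.039 and 0.044).

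Ercc5, whose product XPG cuts on the 3′ side of the lesion, was at 71.0 and 73.1 CPM in the nt control, 91.4 and 90.5 CPM in siBrca1, 89.5 and 99.1 CPM in siWdr5, and 86.4 and 89.3 CPM in siBard1. All 6 knockdown libraries were above both controls, and it rose in siBrca1 (0.34 ± 0.10) and siWdr5 (0.39 ± 0.10), while 0.29 ± 0.10 in siBard1 missed the threshold (limma adjusted p = 0.072). Ercc3, the XPB helicase of TFIIH, was at 50.7 and 51.6 CPM in the nt control and 62.0 and 63.6 CPM in siWdr5, and rose there (0.30 ± 0.10). Ercc2, the XPD helicase of the same complex, was at 20.2 and 20.9 CPM in the nt control and 16.5 and 13 CPM in siBrca1, and fell there (-0.49 ± 0.16). The calls of Ddb1, Ercc5, Ercc3 and Ercc2 were each lost under at least 1 alternative.

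Of the 8 end-joining genes, 3 fell in siBrca1 (21.8% of all genes), 2 in siWdr5 (16.8%) and 1 in siBard1 (5.87%), and none rose. Xrcc6, which codes for Ku70, was at 76.8 and 75.1 CPM in the nt control, 41.4 and 37.4 CPM in siBrca1, 46 and 52.6 CPM in siWdr5, and 52.2 and 52.8 CPM in siBard1. It fell in all 3 (-0.95 ± 0.11, -0.63 ± 0.11 and -0.53 ± 0.11, limma adjusted p = 2.5e-05, 0.00091 and 0.0080). Xrcc5, which codes for Ku80, was at 58.6 and 54.2 CPM in the nt control, 40.3 and 32.9 CPM in siBrca1, and 33.5 and 37.8 CPM in siWdr5. It fell in both (-0.63 ± 0.13 and -0.66 ± 0.13), and in siBard1 it was at 48.4 and 51.8 CPM, which did not pass the test.

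Dclre1c, the nuclease Artemis, was at 18.1 and 13.9 CPM in the nt control and 9.43 and 9.35 CPM in siBrca1, and fell there (-0.76 ± 0.20). Prkdc, the catalytic subunit of DNA-PK, had log2 fold changes of -0.04 to 0.02 in the 3 knockdowns, with SE of 0.14, and Lig4, Nhej1 and Trp53bp1 lay between -0.20 and 0.17. Xrcc4 had a log2 fold change of -0.62 ± 0.24 in siWdr5, which missed the threshold (limma adjusted p = 0.057).

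Of the 5 translesion genes, Rad18, the ubiquitin ligase that marks PCNA at stalled forks, was at 30.7 and 27.7 CPM in the nt control, 14.8 and 12.6 CPM in siBrca1, 14.6 and 18.6 CPM in siWdr5, and 24.9 and 32.0 CPM in siBard1. It fell in siBrca1 (-1.10 ± 0.16) and siWdr5 (-0.82 ± 0.16), whereas the siBard1 libraries spanned the controls (-0.05 ± 0.16). The polymerase genes had calls in both directions. Polh was at 37.9 and 39.8 CPM in the nt control and 29.3 and 26.9 CPM in siBrca1, and fell there (-0.47 ± 0.13), as did Rev1 (58.0 and 50.7 CPM against 44.5 and 39.0 CPM, -0.38 ± 0.12). Polk was at 48.2 and 41.4 CPM in the nt control and 57.5 and 61.7 CPM in siWdr5, and rose there (0.42 ± 0.12). Mgmt, the direct-reversal enzyme for O6-methylguanine, passed the test in no knockdown.

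**Figure D2:**
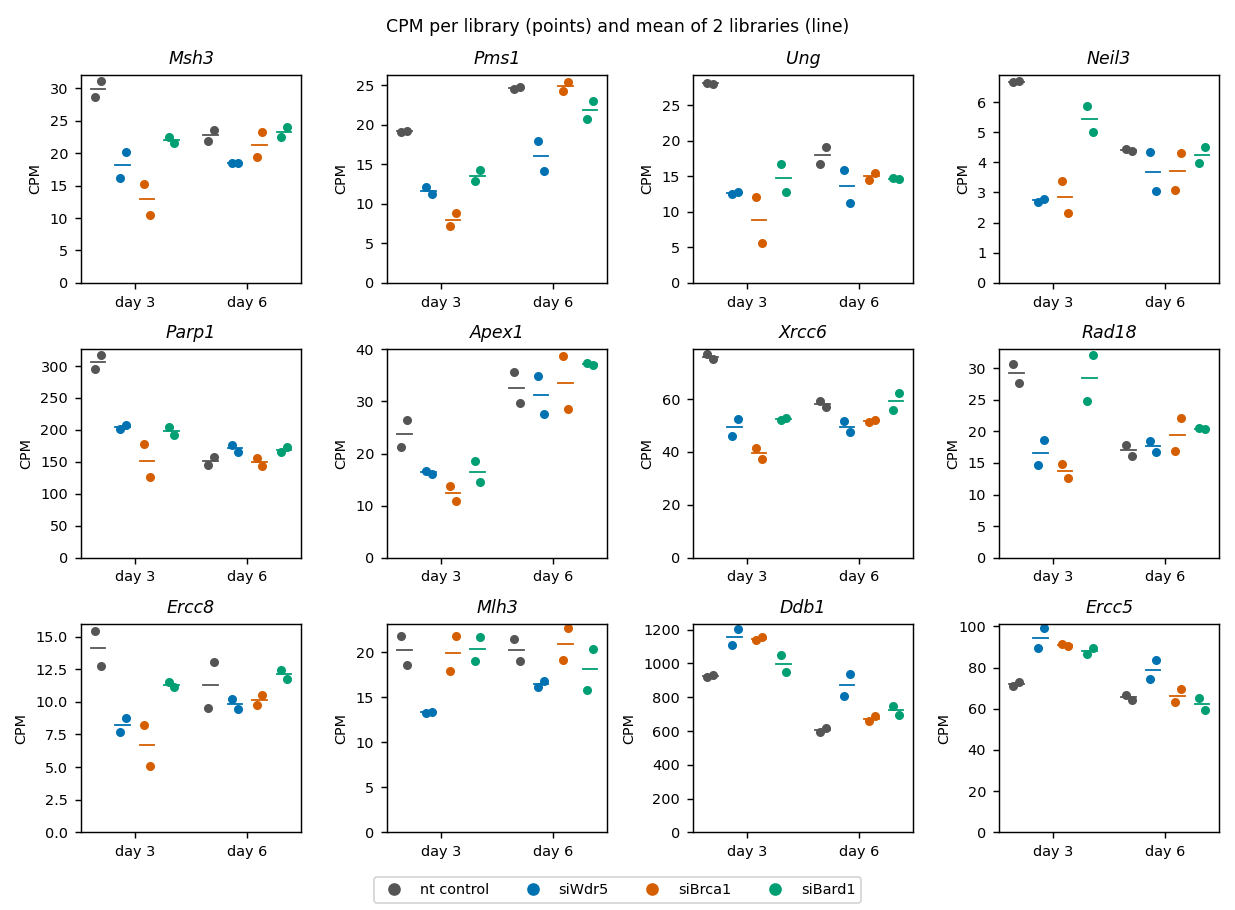
CPM (y axes, linear from 0) of 12 members in each of the 16 libraries, as points, with a line at the mean of the 2 libraries, for day 3 and day 6 and for the nt control, siWdr5, siBrca1 and siBard1 from left to right. Ung at day 3 lies at 28.2 and 28.0 CPM in the nt control and at 5.62 to 16.8 CPM in the knockdowns, while Ddb1 and Ercc5 lie above the control in siWdr5 and siBrca1.

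The 3 knockdowns were compared with each other at day 3. In siBrca1 10 members were lower than in siBard1 and none higher (8.33% of all genes were lower): Rad18 (-1.05 ± 0.16), Neil3 (-0.96 ± 0.23), Ung (-0.82 ± 0.26), Ercc8 (-0.81 ± 0.21), Msh3, Pms1, Pms2, Msh6, Xrcc5 and Xrcc6. In siWdr5 4 were lower than in siBard1 and none higher (3.78% of all genes were lower): Neil3 (-0.99 ± 0.23), Rad18 (-0.78 ± 0.16), Mlh3 (-0.61 ± 0.15) and Xrcc5 (-0.49 ± 0.13). Between siBrca1 and siWdr5, 2 members were lower (5.47% of all genes) and 2 higher (10.2%) in siBrca1. Pms1 (-0.55 ± 0.16) and Parp1 (-0.45 ± 0.14) were lower, and Neil1 (1.06 ± 0.24) and Mlh3 (0.57 ± 0.15) were higher.

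None of these 18 calls held under every alternative. The 10 calls of siBrca1 against siBard1 became 3 without siBrca1 replicate 2, 4 without siBard1 replicate 1 and 0 without siBard1 replicate 2. The 4 calls of siWdr5 against siBard1 became 0 without siWdr5 replicate 1 or siBard1 replicate 2, and 1 without siWdr5 replicate 2 or siBard1 replicate 1. Those of siBrca1 against siWdr5 became 14 without siBrca1 replicate 1, 2 without siBrca1 replicate 2, 0 without siWdr5 replicate 1 and 1 without siWdr5 replicate 2.

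By day 6 few members differed from the nt control. In siBrca1 none of the 46 passed the test with limma, none had an unadjusted p under 0.05, and limma-voom on recovered reads called none (0% of all genes were called). In siBard1 none passed with limma (0.0784% of all genes were called), and limma-voom called none. There 2 members had an unadjusted p under 0.05, a threshold at which the share of all genes was not counted. In siWdr5, 3 members rose (16.1% of all genes) and 2 fell (5.70%). Ercc4, a subunit of the nuclease that cuts 5′ of the lesion, rose by 0.66 ± 0.15 (26.8 and 30.2 CPM against 19.1 and 17.0 CPM), Ercc3 by 0.57 ± 0.13 and Ddb1 by 0.52 ± 0.14. Pms1 fell by -0.63 ± 0.15 (18.0 and 14.1 CPM against 24.4 and 24.7 CPM), and Xrcc4 by -0.66 ± 0.19. The 5 calls became 0 without siWdr5 replicate 2 or nt control replicate 2, and 1 without nt control replicate 1.

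The change of a knockdown effect between the days was tested directly, as the day 6 log2 fold change minus that of day 3. In siBrca1 this difference was above 0 for 13 members (10.3% of all genes) and below 0 for none (10.3% of all genes as well). It was 1.51 ± 0.37 for Ung, 1.28 ± 0.21 for Pms1, 1.28 ± 0.24 for Rad18, 1.14 ± 0.23 for Msh3 and 1.01 ± 0.19 for Parp1, and between 0.54 and 0.98 for Apex1, Apex2, Ercc8, Lig3, Msh6, Pms2, Xrcc5 and Xrcc6. For Ung the libraries of siBrca1 were at 12.1 and 5.62 CPM at day 3 and 14.5 and 15.4 CPM at day 6, and those of the nt control at 28.2 and 28.0 CPM and then 16.8 and 19.1 CPM, so both groups moved. For Pms1 siBrca1 went from 7.22 and 8.79 CPM to 24.2 and 25.4 CPM, while the nt control went from 19.1 and 19.2 CPM to 24.4 and 24.7 CPM. The 13 calls became 7 without siBrca1 day 3 replicate 2 and 8 without nt control day 3 replicate 1.

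**Figure D3:**
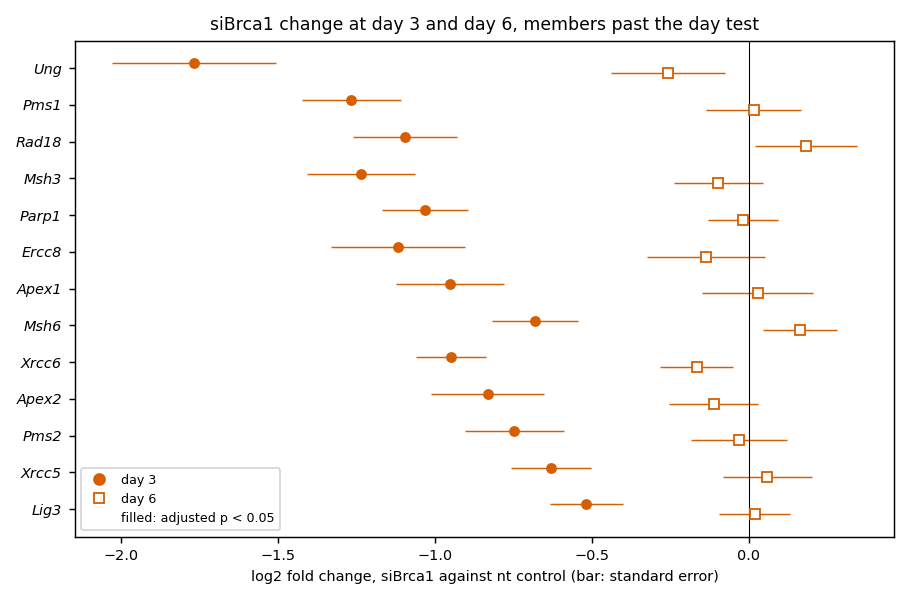
Log2 fold change of siBrca1 against the nt control (x axis) at day 3 (circles) and day 6 (squares) for the 13 members whose change differed between the days, 2 libraries per group; bars are standard errors and filled symbols have an adjusted p under 0.05. Day 3 values run from -1.77 (Ung) to -0.52 (Lig3), and none of the day 6 values passed the test.

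In siWdr5 the difference was above 0 for 3 members (3.40% of all genes), Rad18 (0.87 ± 0.24), Parp1 (0.75 ± 0.19) and Ercc4 (0.74 ± 0.17). The median of all genes in that comparison was 0.12, and with values centred on the median gene no member passed; leaving out any 1 library also left none. In siBard1 no member passed with limma (0.0499% of all genes were called) or with limma-voom. There 9 members had an unadjusted p under 0.05, and the share of all genes at that looser threshold was not counted.

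In the nt control, members moved in both directions over the course of reprogramming. From day 3 to day 6, 16 of the 46 members fell (27.1% of all genes) and 5 rose (19.0%), and the median was -0.19 against -0.073 over all genes. Parp1 had the lowest value, from 295 and 317 CPM to 145 and 158 CPM (-1.01 ± 0.13, limma adjusted p = 2.6e-05). Lig3 went from 85.4 and 84.0 CPM to 42.4 and 46 CPM (-0.94 ± 0.11) and Ercc4 from 32.6 and 34.1 CPM to 19.1 and 17.0 CPM (-0.89 ± 0.12), in each case with no overlap between the days. Polh (-0.82 ± 0.13), Rad18 (-0.78 ± 0.17) and Msh6 (-0.68 ± 0.13) followed.

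Nucleotide excision genes fell as well: Ercc2 (-0.63 ± 0.16), Ddb1 (-0.61 ± 0.12), Ercc3 (-0.56 ± 0.11) and Ercc6 (-0.51 ± 0.12), the last coding for the CSB translocase. Ddb1 and Ercc3 fell with time in the control and rose in siWdr5 at both days, in comparisons that share control libraries. Pms2, Apex2, Xrcc1, Parp2, Trp53bp1 and Xrcc6 fell by 0.39 to 0.44 on the log2 scale. The genes that rose were Polb (14.3 and 13.7 CPM to 24.9 and 29.2 CPM, 0.95 ± 0.16), Nthl1 (0.75 ± 0.27), Xrcc4 (5.68 and 5.10 CPM to 9.65 and 8.43 CPM, 0.75 ± 0.21), Mgmt (0.43 ± 0.12) and Polk (0.30 ± 0.12). Without nt control day 6 replicate 1 the 21 calls became 12. The summed proliferation level went from 2242 and 2236 CPM to 1323 and 1391 CPM over the same days, and its part in these changes was not tested.

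**Figure D4:**
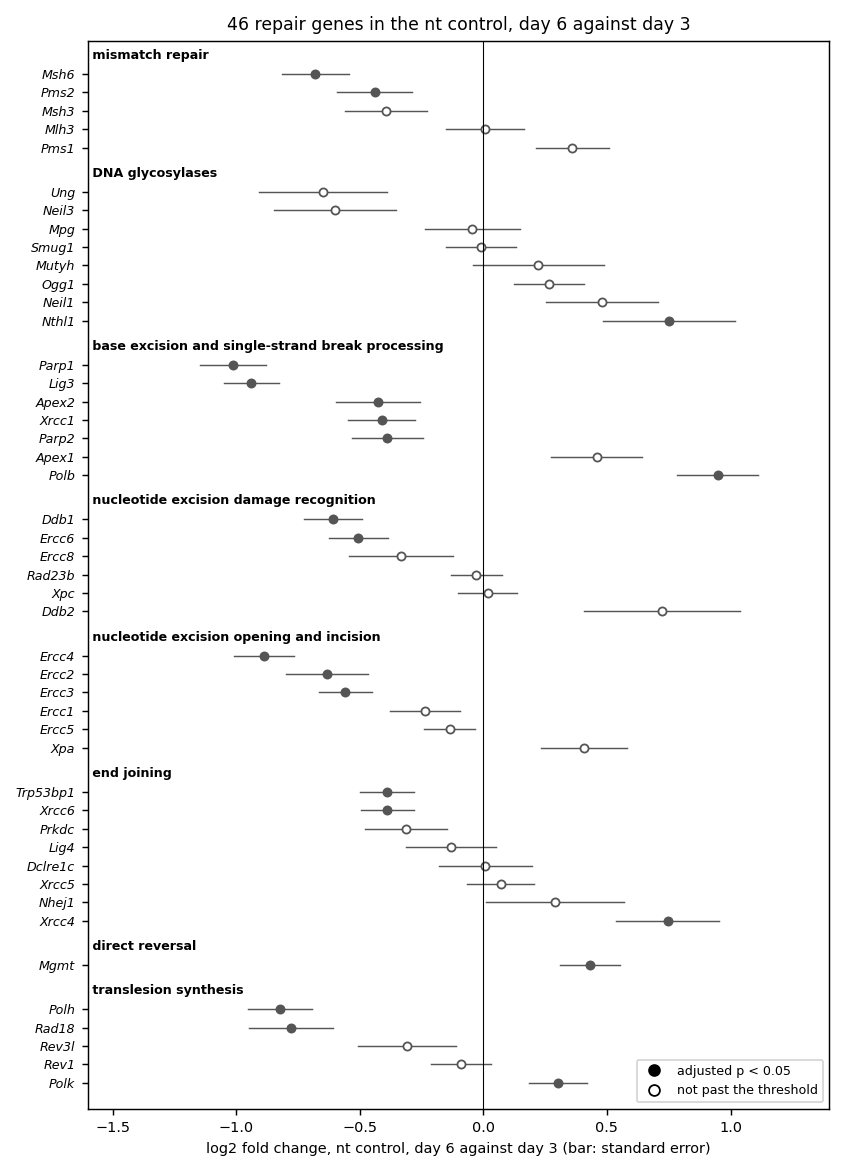
Log2 fold change in the nt control from day 3 to day 6 (x axis) for each of the 46 genes (y axis, grouped by role), 2 libraries per day; bars are standard errors and filled points have an adjusted p under 0.05. Parp1 is lowest at -1.01 and Polb highest at 0.95.

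A further list of 64 genes of the same pathways, all tested and chosen with earlier results known, was counted beside the members. At day 3, 35 fell and 3 rose in siBrca1, with a median log2 fold change of -0.40 (21.8% and 25.4% of all genes fell and rose). In siWdr5 32 fell and 3 rose (median -0.39, with 16.8% and 18.3% of all genes). In siBard1 4 fell and 1 rose (median -0.21, with 5.87% and 8.67% of all genes). The lowest in siBrca1 were Polq (-1.52 ± 0.21), a polymerase of microhomology end joining, Exo1 (-1.41 ± 0.19), the mismatch repair exonuclease, Pcna (-1.39 ± 0.21), the sliding clamp, and Pole2 (-1.38 ± 0.21), a subunit of a replicative polymerase. Pcna is in both this list and that of the 12 proliferation genes. All 12 proliferation genes fell in siBrca1, each by more than 1 on the log2 scale, 11 fell in siWdr5, and 1 in siBard1. Their medians were -1.35, -0.76 and -0.36. Members that fell numbered 20, 16 and 5 in the same order, and the part of proliferation levels in those counts was not tested.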

How the data were processed

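Expression was measured by RNA sequencing in 16 libraries of reprogramming MEFs, in 8 groups of 2. Total RNA was depleted of ribosomal RNA before library preparation and sequenced in pairs, and the reads were aligned with STAR 2.5.2b to mm10 (GRCm38). The deposited values are log2 CPM per gene that the authors made with edgeR 3.20.9. The read counter, annotation, strand setting and filter on low counts were not given in the sources used here, nor was whether transcripts of the introduced factors were kept apart from the endogenous ones.

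The deposited table holds no counts, but 100% of its values were whole multiples of 1 read (within 0.05), with a prior of 1.57 to 3.57 reads added; the recovered reads served for depth and for 1 alternative. The deposited log2 CPM were fitted with limma 3.58.1 in R 4.3.3, with an intensity trend, over those genes whose log2 CPM averaged 0 or more across libraries (14028 of 18990). Comparisons within a day used the 8 libraries of that day (4 residual degrees of freedom), and comparisons between days used all 16 (8 residual degrees of freedom). P-values were two-sided and adjusted with Benjamini-Hochberg over all genes tested, and a member was called at an adjusted p under 0.05. Counts at an unadjusted p under 0.05 are given without the share of all genes at that threshold, which was not counted. The replicates come from independent experiments per the study's methods. With n = 2, p-values rest on spread pooled across genes and groups.

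Values in every library were given for members called at day 3 with the largest changes in their role class (up to 4 per class), for members past 1 on the log2 scale in a called comparison, and for members called against most of their class; other members are given as changes, and a few also with library values. Of the other lists, at most 4 genes with the largest changes were named. The members, role classes and lists were chosen with earlier results of these data known. Exon positions and lengths came from GENCODE vM21 and promoter windows from RefSeq, both on GRCm38. One promoter window and 1 neighbouring gene are not reported here. The alternatives were a replicate block, no filter, a pseudocount of 1 CPM, centring on the median gene, limma-voom on recovered reads, the 4 libraries of the compared groups alone, and leaving out each library.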

Additional observations from a re-analysis of the deposited data

Results flagged for a closer look

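Results flagged here are differences between the days under the same knockdown, each by the limma test of the difference itself (day 6 log2 fold change minus day 3 log2 fold change, adjusted over all genes tested). In siBrca1 the difference was 1.51 for Ung, 1.28 for Pms1, 1.28 for Rad18, 1.14 for Msh3 and 1.01 for Parp1. It was 0.98 for Ercc8, 0.98 for Apex1, 0.84 for Msh6 and 0.78 for Xrcc6. Apex2 and Pms2 had 0.72 each, Xrcc5 had 0.69 and Lig3 had 0.54. In all 13 both siBrca1 libraries lay below both nt control libraries at day 3. The 13 were picked by a difference that favours low siBrca1 values at day 3, so this is no separate support. The share of all genes with such a separation was not counted.

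In siWdr5 the difference was 0.87 for Rad18, 0.75 for Parp1 and 0.74 for Ercc4. For Ercc4 the siWdr5 libraries were at 30.7 and 32.4 CPM at day 3, against 32.6 and 34.1 CPM in the nt control, and at 26.8 and 30.2 CPM at day 6, against 19.1 and 17.0 CPM. The target transcripts were lower at day 3 and not detectably lower at day 6, and the part of this in the differences was not tested. Groups of 2 libraries are too small for a test of single libraries that stand apart from their group.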

How the results depend on the processing

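Of 107 calls of a member in a comparison, none changed direction under any alternative, and 36 held under all of them. Counts of members called moved by more than 1.5 times as follows, and the cause was not tested. The shares of all genes called in the same fits are not given, so these moves are not shown to be particular to the members. Without the filter, siBard1 against the nt control at day 3 went from 5 to 1, siBrca1 against siWdr5 from 4 to 1, siBrca1 against siBard1 from 10 to 5 and siWdr5 against siBard1 from 4 to 0. With the 4 libraries of the compared groups alone, siBard1 at day 3 gave 12, siBrca1 against siWdr5 gave 1 and siBrca1 against siBard1 gave 3. On recovered reads with limma-voom, siBard1 at day 3 gave 8. Centring on the median gene gave 0 for the day difference in siWdr5 (3 as reported) and 8 for siBrca1 against siWdr5.

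Leaving out 1 library gave 8 to 12 members for siWdr5 at day 3 (20 as reported), 0 to 3 for siBard1 at day 3 and 0 to 5 for siWdr5 at day 6 (5 as reported). It gave 12 to 17 for the nt control course (21 as reported), 0 for the day difference in siWdr5 and 7 to 15 for that in siBrca1 (13 as reported). Between knockdowns it gave 0 to 14 for siBrca1 against siWdr5, 0 to 14 for siBrca1 against siBard1 and 0 to 1 for siWdr5 against siBard1.

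The replicate numbers were not taken to pair the samples: no label says that a number marks a shared batch or experiment, and deviations of same-numbered libraries correlated by -0.093 to 0.072 at day 3 and by -0.070 to 0.260 at day 6. With a replicate block, siBrca1 against siWdr5 gave 7, the day difference in siBard1 gave 1 (0 as reported), and the other counts stayed within 1.5 times. The block was among the alternatives that lost the day 3 calls of Ddb1 in siBrca1 and siWdr5 and of Ercc3 in siWdr5. With 2 libraries per group, a difference that missed the threshold is not shown to be absent. The largest standard errors against the nt control at day 3 were those of Ddb2 (0.32) and Nhej1 (0.29).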

Other observations

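Several members start head to head with another gene. On GENCODE vM21, 13 such members are described here, each with a tested gene that starts on the opposite strand with at most 500 bases between the starts, and these neighbours were looked at after the values of the members were known. In siBrca1 at day 3, 6 of the 13 members and 6 of the 13 neighbours fell (21.8% of all genes fell), and in 4 pairs both genes fell. These pairs were Pms1 with Ormdl1, Pms2 with Aimp2, Mutyh with Toe1, and Ercc8 with Ndufaf2. Aimp2 had a log2 fold change of -0.70 ± 0.15 beside -0.75 for Pms2, and Ormdl1 had -0.61 ± 0.21 beside -1.27 for Pms1 (limma adjusted p = 0.0022 and 0.030).

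In 6 other pairs 1 gene of the pair passed the test in siBrca1 at day 3. Osgep, 75 bases from the start of Apex1, had 0.17 ± 0.13 while Apex1 fell. Mcm4, the helicase subunit next to Prkdc, fell by -1.18 ± 0.21 and Lsm3, next to Xpc, by -1.56 ± 0.23, while Prkdc had -0.02 and Xpc -0.06. Tsc2, next to Nthl1 (0.07), was the neighbour that rose (0.48 ± 0.10, limma adjusted p = 0.0018). Some pairs had values of like sign without both passing, such as Ddb1 (0.31) with Tkfc (0.28 ± 0.14) and Polh (-0.47) with Xpo5 (-0.25 ± 0.10). Tkfc overlaps 5.12% of the exon bases of Ddb1 on the opposite strand. Reads of that pair can mix where counting did not use strand, which is not stated. In siWdr5 at day 3, 5 of the 13 members and 1 neighbour fell (16.8% of all genes fell), with no pair in which both did. The neighbour was Lsm3 (-0.98 ± 0.23). In siBard1 1 member fell and no neighbour of the 13 passed (5.87% of all genes fell and 8.67% rose). For head-to-head pairs over all genes, the share in which both fell was not counted.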
